A study of Mus musculus with 18 samples.

Results

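The 9 genes *Cd79a*, *Cd79b*, *Syk*, *Lyn*, *Btk*, *Blnk*, *Plcg2*, *Cd22*, and *Cd72* encode the proximal signaling machinery of the B cell receptor. They were chosen by symbol from the 55491 genes of a count table, and all 9 were found once. The table holds bulk RNA-Seq of B cells from female BALB/cJ mice with an ovalbumin (OVA) allergy. All mice were sensitized i.p. with 20 μg OVA in 1 mg alum on days 0 and 14, from an age of 4 to 6 weeks, and were 10 to 12 weeks old at harvest. On days 28 and 42 they received i.v. either 100 μL PBS (the allergic controls), 100 μg soluble OVA, or 2.5 mg OVA NPs, polymer nanoparticles in which the allergen is enclosed. B cells were taken from the spleen and from Peyer's patches (PPs), the lymphoid follicles of the small intestine, on day 44, before any oral challenge. There were 3 libraries in each of the 6 combinations of tissue and treatment. Every comparison is thus among allergic mice. By the loading given in the study's methods, the particles carried the same mass of OVA as the soluble dose.

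The B cell receptor is a membrane immunoglobulin that cannot signal by itself. Its partners *Cd79a* and *Cd79b* carry the tyrosine motifs that *Lyn* phosphorylates and *Syk* binds, and *Syk* then acts through the adaptor *Blnk* to bring *Btk* to its substrate *Plcg2*, which releases calcium. *Cd22* and *Cd72* work against this chain, since their cytoplasmic tails recruit the phosphatase encoded by *Ptpn6*. B cells that have entered germinal centers, which are always present in PPs, carry less surface receptor and signal through it differently from resting follicular B cells.

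Library totals ran from 14177253 to 30052297 counts, and the 9 genes together took between 0.488% and 0.805% of them. Levels are given in CPM, counts scaled by library size after TMM normalization across the 18 libraries. The lowest count of a member in any library was 2744, far above the 3 counts, 0.0998 to 0.212 CPM, taken as the detection limit, and all 9 passed the count filter in every comparison. The 8 B cell markers summed to between 9540.5 and 17237 CPM, whereas the 9 T cell markers reached at most 174 CPM. The 6 neutrophil markers summed to 151 to 513 CPM in spleen libraries and to at most 0.479 CPM in PPs, except in 1 library after OVA NPs (47.4 CPM). In spleen after PBS or soluble OVA, *Cd2* averaged 153 CPM and *Mpo* 221 CPM, most of the T cell and neutrophil sums there. Spleens were dissociated mechanically, whereas PPs were digested with collagenase IV and DNase I, so tissue and dissociation cannot be told apart. Mitochondrial transcripts took 2.82% to 3.41% of the counts in spleen and 4.97% to 9.80% in PP libraries. A difference in these bulk values can be fewer cells of a B cell type or less RNA per cell, and these cannot be told apart. All p values measure the spread between the 3 libraries of a group.

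The 9 genes lie on 7 chromosomes of GRCm38. *Cd79a* spans chr7:24897381-24902197 on the plus strand, *Cd22* chr7:30865402-30880342 on the minus strand, *Lyn* chr4:3678115-3813122 on the plus strand, and *Cd72* chr4:43446462-43454628 on the minus strand. *Cd79b* spans chr11:106311341-106314762, *Blnk* chr19:40928927-40994535, and *Btk* chrX:134542336-134583570, each on the minus strand. *Syk* spans chr13:52583173-52648792 and *Plcg2* chr8:117498291-117635142, both on the plus strand. Exons of *Cd72* overlap those of *Tesk1* on the opposite strand over 1423 bases, or 41.6% of its exon length, and the strand setting of the counting is not given in the sources used here. *Tesk1* was counted at 53.9 to 101 CPM, on average 16.1% of *Cd72*. The overlaps of *Cd22* with *Gm29439* (9.50% of its exon length) and of *Lyn* with *Gm26857* (6.09%) were shorter, and *Gm29439* did not exceed 0.637 CPM.

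The sequences upstream of 4 of these genes are shown because their windows held a match to the motifs searched. Any link between these matches and the levels that follow was not tested. Each is a 100-base window of GRCm38.p6 that holds no exon, upstream of the RefSeq start, printed 5′ to 3′ on the gene's strand with the motif matches in capitals.
Cd79a, chr7:24897281-24897380, plus strand: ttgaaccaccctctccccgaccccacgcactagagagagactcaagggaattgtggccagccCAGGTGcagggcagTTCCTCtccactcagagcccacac
Cd22, chr7:30879029-30879128, minus strand: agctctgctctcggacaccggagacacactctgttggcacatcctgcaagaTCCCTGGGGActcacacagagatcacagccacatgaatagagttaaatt
Cd72, chr4:43454629-43454728, minus strand: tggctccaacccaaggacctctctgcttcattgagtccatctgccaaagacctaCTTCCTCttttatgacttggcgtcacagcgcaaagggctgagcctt
Plcg2, chr8:117498175-117498274, plus strand: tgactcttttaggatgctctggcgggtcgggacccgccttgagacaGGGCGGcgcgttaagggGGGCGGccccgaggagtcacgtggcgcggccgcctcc
The *Cd79a* window holds an E box (CAGGTG) 154 bases and a PU.1 core (GAGGAA, here on the opposite strand) 140 bases before the start. The *Cd22* window holds an EBF core (TCCC and GGGA with any 2 bases between them) at 49 bases, and this RefSeq start lies inside the gene model given above. In the *Cd72* window a PU.1 core at 47 bases and an Ets core (AGGAAG) at 48 bases overlap on the opposite strand. The *Plcg2* window holds a pair of GC boxes (GGGCGG), at 54 and 37 bases. The octamer ATTTGCAT was in none of these windows. Both strands were searched, and of 32851 windows of the same length 0.32% hold the EBF core, 0.645% the octamer, 7.03% the E box, 9.82% the PU.1 core, 13.8% the Ets core, and 24.7% the GC box. Those windows were taken directly before each start with no check for exons. The *Cd79a* window lies farther upstream, from 216 to 117 bases before the start, so these shares do not describe its region. The windows of *Btk* and of 1 *Syk* start held none of these motifs, no exon-free window was found for *Blnk* or the other *Syk* start, and none is shown for *Cd79b* and *Lyn*. A match describes the letters only.

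Per kb of exon, which allows genes to be compared, the subunits of the receptor were by far the most abundant of the 9. In spleen B cells of control mice *Cd79a* stood at 1283 ± 9.16 CPM per kb (SD, n = 3) and *Cd79b* at 976 ± 12.4 CPM per kb. *Cd22* followed at 299 ± 7.22 CPM per kb. *Cd72*, *Syk*, and *Plcg2* lay close together, at 154 ± 3.18, 126 ± 0.720, and 115 ± 4.04 CPM per kb. The kinases *Lyn* and *Btk* were lower, at 93.6 ± 3.50 and 69.8 ± 1.98 CPM per kb, and the adaptor *Blnk* was lowest at 40.5 ± 0.878 CPM per kb. The order *Cd79a*, *Cd79b*, *Cd22* at the top and *Lyn*, *Btk*, *Blnk* at the bottom held in the means of all 6 groups, and the genes that changed places were *Cd72*, *Syk*, and *Plcg2*. *Plcg2* had the lowest mean of these 3 in every spleen group, the middle one in PPs after PBS or OVA NPs, and the highest in PPs after soluble OVA, at 159 ± 12.4 CPM per kb. In that last group *Cd72* (111 ± 18.6) and *Syk* (106 ± 11.5) differed by less than their spread. Exon lengths come from another annotation release than the one used for counting.

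**Figure D1:**
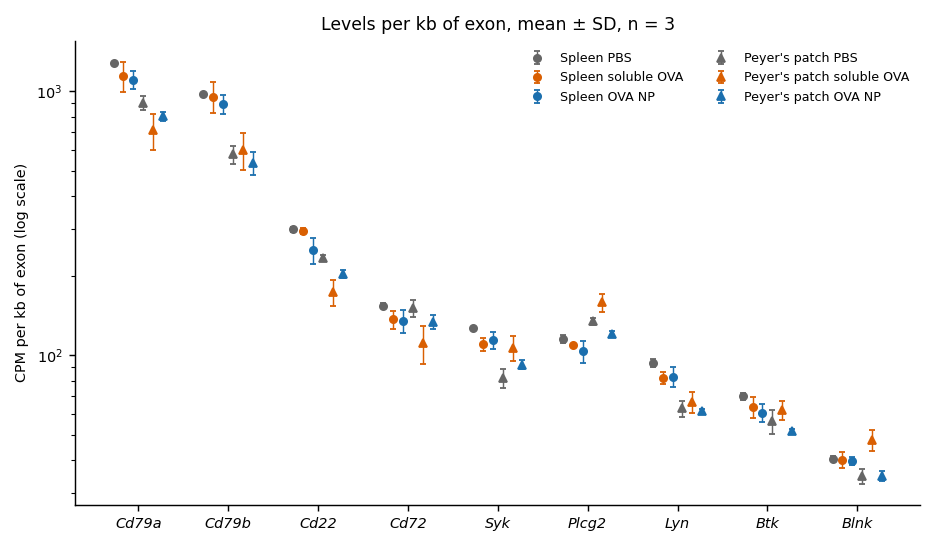
Mean level per kb of exon of each gene (log axis, CPM per kb) in the 6 groups, with bars of 1 SD over 3 libraries; circles are spleen and triangles PP. The signal subunits *Cd79a* and *Cd79b* lie above the other 7 genes in every group, and *Blnk* is lowest in every group.

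Peyer's patch and spleen B cells of PBS-treated mice were compared first. PP B cells had less of both signal subunits, of all 3 kinases, and of *Cd22*, and more *Plcg2*. In all, 7 of the 9 genes passed the test (adjusted p under 0.05 and absolute log2 fold change above 0.25), 6 lower and 1 higher, where 45.6% of the 15463 genes tested passed. The median log2 fold change of the 9 genes was -0.32, against 0.0091 over all genes tested. The libraries of the compared groups did not overlap for 60.5% of the genes tested.

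Of the signal subunits, *Cd79b* differed most. Its libraries read 1397, 1414, and 1379 CPM in spleen and 881, 752, and 839 CPM in PPs. All PP libraries were below all spleen libraries, a 1.65-fold lower level (log2 fold change -0.72, SE 0.070, adjusted p = 2.85e-05). *Cd79a* read 1879, 1873, and 1854 CPM in spleen and 1238, 1395, and 1306 CPM in PPs, again without overlap and 1.39-fold lower in PPs (log2 fold change -0.47, SE 0.057, adjusted p = 1.10e-04). The gap between tissues was also present after soluble OVA (*Cd79a* -0.73, *Cd79b* -0.71) and after OVA NPs (*Cd79a* -0.45, *Cd79b* -0.74), on the log2 scale. In spleen the control libraries of *Cd79a* differed by an SD of 13.4 CPM, whereas the soluble OVA libraries differed by 216 CPM.

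The 3 kinases were lower in PPs to different degrees. *Syk*, which docks on the phosphorylated subunits, read 1184, 1191, and 1177 CPM in spleen and 757, 833, and 709.5 CPM in PPs. The PP level was 1.51-fold lower (log2 fold change -0.59, SE 0.061, adjusted p = 4.03e-05). *Lyn*, the Src-family kinase that acts first in the chain and also phosphorylates *Cd22*, read 373, 398, and 373 CPM in spleen and 242, 277, and 249.7 CPM in PPs, 1.45-fold lower (log2 fold change -0.54, SE 0.062, adjusted p = 7.93e-05). Neither kinase overlapped between tissues. *Btk*, the Tec-family kinase that phosphorylates *Plcg2*, read 213, 223, and 224 CPM in spleen and 165, 198, and 169 CPM in PPs. Its difference was smaller, 1.21-fold (log2 fold change -0.28, SE 0.070, adjusted p = 0.00802), and it was -0.23 without PP PBS replicate 1 and -0.25 with at least 10 counts in every library, both inside the fold cutoff.

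The genes downstream of the kinases had values of opposite sign. *Blnk* read 248, 238, and 243 CPM in spleen and 204, 225, and 199 CPM in PPs, with a log2 fold change of -0.18 that did not reach the fold cutoff (adjusted p = 0.0227). *Plcg2* was the one member that was higher in PPs, at 479, 489, and 513 CPM in spleen and 576, 598, and 562 CPM in PPs. The groups did not overlap, and the PP level was 1.20-fold that of spleen (log2 fold change 0.27, SE 0.053, adjusted p = 0.00225). The value lies close to the fold cutoff, and it was 0.23 without spleen PBS replicate 1 and 0.24 without PP PBS replicate 2, 0.23 with no count filter, and just under the cutoff in the fit to 18 libraries.

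Of the inhibitory receptors, *Cd22* passed the test and *Cd72* did not. *Cd22*, a lectin that binds sialic acid on the same cell surface, read 1468, 1524, and 1537 CPM in spleen and 1155, 1208, and 1176 CPM in PPs. It was 1.25-fold lower in PPs (log2 fold change -0.32, SE 0.052, adjusted p = 6.91e-04). *Cd72*, a C-type lectin-like receptor, read 515, 536, and 529.9 CPM in spleen and 475, 549, and 528 CPM in PPs, and the groups overlapped. Its log2 fold change was 0.0097, with an approximate 95% interval from -0.11 to 0.13. This interval uses a normal quantile, which makes it too narrow for so few libraries. The log2 fold change of *Cd22* (-0.32) lies outside it, but the difference between these genes was not tested.

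The tissue difference was then followed across treatments. In mice given OVA NPs 5 of the 9 genes passed, all lower in PPs, where 37.1% of all genes passed. These were *Cd79b*, *Cd79a*, *Lyn*, *Syk*, and *Cd22*, and *Btk* (-0.22), *Blnk* (-0.18), and *Plcg2* (0.23) had an adjusted p under 0.05 with a log2 fold change inside the cutoff. Without spleen OVA NP replicate 3, *Cd22* moved from -0.29 to -0.21, inside the cutoff, and *Plcg2* moved to 0.29, outside it. Without spleen OVA NP replicate 1, *Btk* moved to -0.28, outside the cutoff.

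In mice given soluble OVA 6 of the 9 genes passed, 5 lower and 1 higher in PPs, where 51.1% of all genes passed. *Cd22* was 1.76-fold lower in PPs (log2 fold change -0.81, SE 0.090, adjusted p = 6.09e-05) and *Plcg2* was 1.41-fold higher (log2 fold change 0.49, SE 0.074, adjusted p = 4.51e-04). *Lyn* was 1.27-fold lower. *Syk*, at -0.089 (adjusted p = 0.429), and *Btk*, at -0.084 (adjusted p = 0.416), did not pass, and their libraries overlapped between tissues. *Blnk* had a positive log2 fold change of 0.21 with an adjusted p of 0.0489, inside the fold cutoff, and it was 0.25 without PP soluble OVA replicate 2, outside it. *Cd72* was -0.34 (adjusted p = 0.0251) although its libraries overlapped. Its call was lost without spleen soluble OVA replicate 1 (-0.31) or 2 (-0.33) and without PP soluble OVA replicate 2 (-0.25) or 3 (-0.29).

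**Figure D2:**
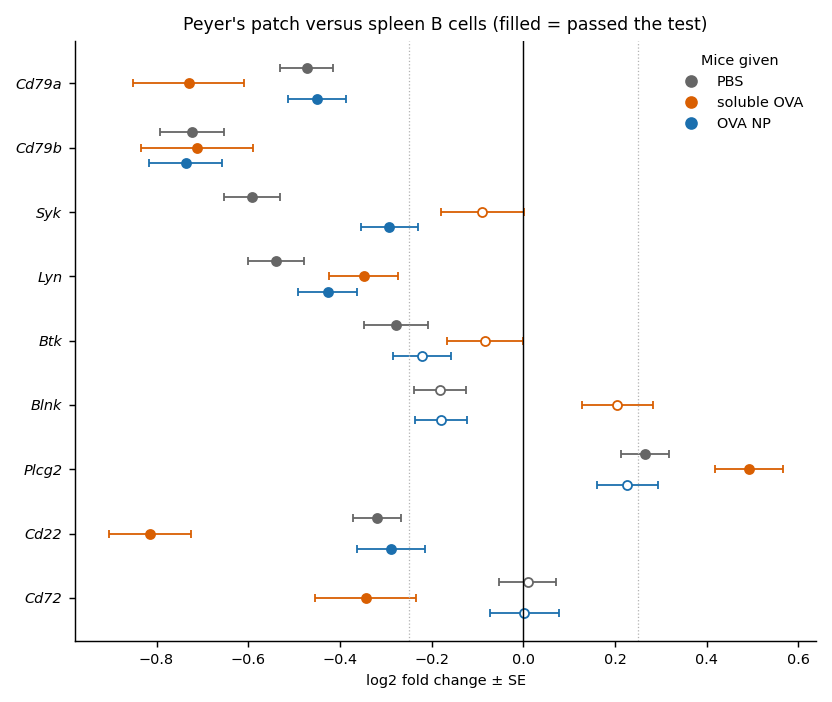
Log2 fold change of PP over spleen B cells (horizontal axis, bars of 1 SE from edgeR) for each gene, in mice given PBS, soluble OVA, or OVA NPs; filled points passed the test and dotted lines mark the fold cutoff of 0.25. *Cd79a*, *Cd79b*, *Lyn*, and *Cd22* are filled and to the left in all 3 treatments, and *Plcg2* is to the right in all 3.

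Markers of other cells and states differed between the tissues alongside these results. All 8 germinal center markers and all 8 cycling markers were higher in PP than in spleen B cells of control mice. The germinal center markers summed to 106 to 175 CPM in spleen and 1116 to 1330.2 CPM in PPs, and the cycling markers to 307 to 377 CPM and 1296 to 1608 CPM. The 8 B cell markers, 4 of them lower in PPs, summed to 16293 to 16964 CPM and 13307 to 15282 CPM. Neutrophil markers, of which 5 of 5 tested were lower in PPs, summed to 156 to 420.4 CPM in spleen and 0.0828 to 0.289 CPM in PPs, where *S100a8*, *S100a9*, *Ly6g*, and *Camp* were at 0. Monocyte and macrophage markers (5 of 9 lower, 1 higher) summed to 121 to 279.7 CPM and 163 to 276 CPM. Other markers also separated the control tissues without overlap. Plasma cell markers (4 of 5 tested higher) summed to 376 to 436 CPM in spleen and 908 to 1050.0 CPM in PPs, and T cell markers (4 of 6 tested higher, 1 lower) to 158 to 174 CPM and 84.8 to 92.0 CPM. Dendritic cell markers (4 of 7 higher) summed to 24.2 to 33.8 CPM and 63.1 to 84.8 CPM, NK cell markers (3 of 5 higher) to 5.25 to 6.73 CPM and 21.6 to 23.5 CPM, and epithelial and stromal markers (6 of 7 higher, 1 lower) to 241 to 253 CPM and 332 to 652 CPM. Single genes made up most of some spleen sums. Over the spleen PBS and soluble OVA libraries, *Cd2* averaged 153 CPM of the T cell markers and *Mpo* 221 CPM of the neutrophil markers. *Pecam1*, also in the inhibitory list below, averaged 222 CPM of the epithelial and stromal markers there. After soluble OVA and after OVA NPs 8 of 8 germinal center markers were again higher in PPs, with 8 and 3 of 8 cycling markers. The part of these cells in the tissue difference was not tested.

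Next, the effect of treatment was examined in PPs. Soluble OVA changed 5 of the 9 genes in PP B cells. The adaptor *Blnk* and the kinase *Syk* rose, and the inhibitory receptors *Cd72* and *Cd22* and the subunit *Cd79a* fell, where 27.4% of the 15792 genes tested passed. *Cd79b*, *Lyn*, and *Btk* did not pass, and *Plcg2* had a log2 fold change of 0.19 (adjusted p = 0.0656). For 45.4% of the genes tested, the libraries after soluble OVA and PBS did not overlap. The libraries of PBS-treated mice serve as controls here and in the OVA NP comparison.

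Of the members that rose, *Blnk*, the adaptor, read 315, 268, and 274 CPM after soluble OVA, above every control library. It rose 1.33-fold (log2 fold change 0.41, SE 0.078, adjusted p = 0.00483), and the call held in each of 6 fits that left out 1 library. *Syk* read 1119, 916, and 955 CPM, also above every control library, and rose 1.26-fold (log2 fold change 0.34, SE 0.089, adjusted p = 0.0209). Its call was lost without PP PBS replicate 1 (0.33, adjusted p = 0.0741) or 3 (0.33, adjusted p = 0.0536). *Plcg2*, which *Blnk* and *Btk* activate, read 742, 659.8, and 643 CPM, above all 3 control libraries without passing the test.

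Of the members that fell, *Cd22* read 983, 810.3, and 821 CPM after soluble OVA, below every control library. It fell by 28.3% (log2 fold change -0.48, SE 0.079, adjusted p = 0.00228), and this call too held in each of the 6 fits. *Cd72* read 452, 332, and 356 CPM and fell by 28.8% (log2 fold change -0.49, SE 0.11, adjusted p = 0.00922). *Cd79a* read 1219, 909, and 974 CPM and fell by 23.6% (log2 fold change -0.39, SE 0.10, adjusted p = 0.0205). Both genes lay below every control library, and replicate 1 stood nearest to the controls. The *Cd79a* and *Cd72* calls were each lost without PP PBS replicate 2 (-0.30 and -0.40), PP PBS replicate 3 (-0.34 and -0.43), PP soluble OVA replicate 2 (-0.25 and -0.35), or PP soluble OVA replicate 3 (-0.29 and -0.39). The gene whose exons overlap *Cd72*, *Tesk1*, had a log2 fold change of -0.33 (adjusted p = 0.131).

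The partner subunit of *Cd79a* did not pass, and the difference between the subunits was not tested. *Cd79b* read 1016, 787, and 767 CPM after soluble OVA, overlapping its control libraries, with a log2 fold change of 0.013 and a 95% interval from -0.20 to 0.22. *Lyn* read 298, 257, and 256 CPM and *Btk* 213, 186, and 185 CPM, with log2 fold changes of 0.037 (-0.12 to 0.19) and 0.093 (-0.078 to 0.26). Replicate 1 of the soluble OVA group was the highest of its group for all 9 genes. Without it, the same 5 genes passed, with *Cd79a* at -0.48, *Cd72* at -0.59, *Cd22* at -0.53, *Blnk* at 0.37, and *Syk* at 0.29. With other libraries left out, between 2 and 4 of the 9 passed.

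**Figure D3:**
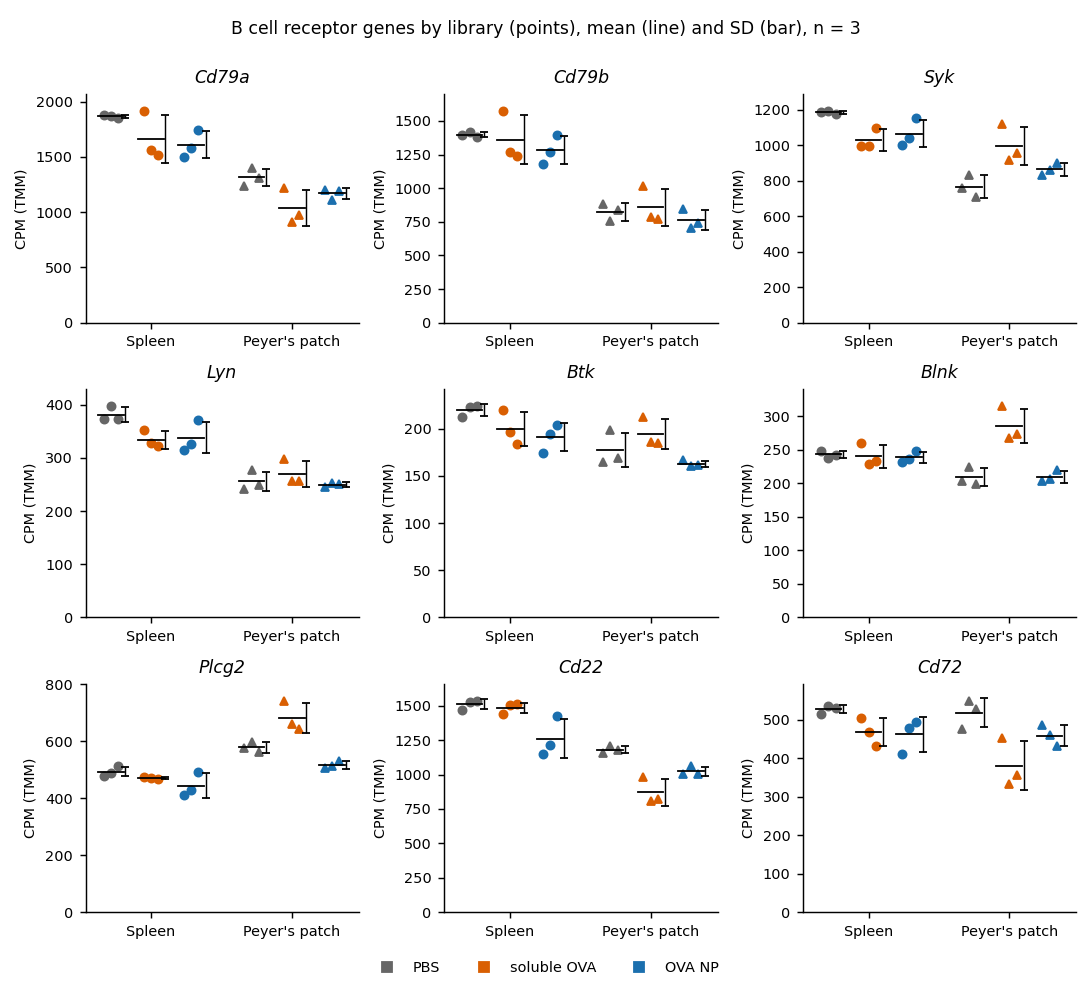
CPM of each of the 9 genes (vertical axes, from 0) in every library, as circles for spleen and triangles for PPs in 3 treatments, with the group mean as a line and 1 SD as a bar (n = 3). In PPs, *Blnk* after soluble OVA lies above the control libraries, *Cd22* lies below them, and *Cd79b* overlaps them.

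Germinal center and cycling markers moved with this result as well. After soluble OVA, 7 of 8 germinal center markers and 8 of 8 cycling markers were higher in PP B cells. Their sums were 2043 to 2139 CPM and 3185 to 3454 CPM, with no overlap with the control libraries. The B cell markers, 3 of 8 lower, summed to 9540.5 to 11991 CPM, and the T cell markers, 1 of 8 tested lower, to 41.2 to 61.7 CPM against 84.8 to 92.0 CPM in controls. The neutrophil markers *S100a8*, *Ly6g*, *Camp*, and *Ngp* were at 0 in the soluble OVA libraries. The part of these markers' cells in the result was not tested.

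In spleen, soluble OVA changed 0 of the 9 genes, where 17.2% of the 14128 genes tested passed. For 37.9% of these tested genes the groups did not overlap. *Syk* read 993, 994, and 1098 CPM after soluble OVA, below all 3 control libraries, with a log2 fold change of -0.17 (SE 0.069, adjusted p = 0.0997). *Lyn* read 353, 327, and 322 CPM, also below its controls, at -0.16 (adjusted p = 0.0902), and *Cd72* read 503, 468, and 431 CPM, at -0.14 (adjusted p = 0.169). *Cd79a* (1912, 1563, and 1516 CPM), *Cd79b* (1572, 1272, and 1240.3 CPM), and *Btk* (219.7, 196, and 184 CPM) overlapped their controls, with replicate 1 above the other replicates of the group. *Blnk* (260.0, 228, and 233 CPM), *Plcg2* (474, 471, and 466 CPM), and *Cd22* (1442, 1505, and 1509.6 CPM) had log2 fold changes of 0.018, -0.036, and 0.012. Of the 9 genes, 2 (*Syk* and *Lyn*) had an unadjusted p under 0.05, and DESeq2 also called 0. In these spleen libraries 8 of 8 germinal center and 8 of 8 cycling markers were higher, with sums of 357 to 529 CPM and 899 to 1048 CPM, and 6 of 9 monocyte and macrophage markers were lower, with sums of 42.2 to 86.5 CPM. Plasma cell markers, 2 of 5 tested higher and 1 lower, summed to 466 to 545 CPM against 376 to 436 CPM in controls. Their part was not tested.

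The effect of soluble OVA on 3 of the 9 genes differed between the tissues. The difference itself was tested as an interaction term over 12 libraries, where 6.84% of the 16541 genes tested passed (adjusted p under 0.05). *Syk* had a positive interaction of 0.51 on the log2 scale (SE 0.12, adjusted p = 0.0165), from -0.17 in spleen to 0.34 in PPs. *Cd22* had a negative interaction of -0.48 (SE 0.11, adjusted p = 0.0124), from 0.012 to -0.48. *Blnk* had a positive one of 0.40 (SE 0.10, adjusted p = 0.0334), from 0.018 to 0.41. The *Syk* call held in all 12 fits that left out 1 library. The *Cd22* call was lost without spleen PBS replicate 1 (-0.45) or PP soluble OVA replicate 3 (-0.39), and the *Blnk* call was lost in 8 of the 12 fits (0.34 to 0.42). For *Blnk* these were the fits without each of the 3 spleen PBS libraries, spleen soluble OVA replicate 2 or 3, PP PBS replicate 1 or 3, or PP soluble OVA replicate 1. Without spleen PBS replicate 1, *Syk* alone passed. *Cd72* (-0.34, adjusted p = 0.162) and *Plcg2* (0.24, adjusted p = 0.153) did not pass, and *Cd72* passed at -0.47 without PP soluble OVA replicate 1, whereas *Plcg2* passed with DESeq2 (0.25, adjusted p = 0.0114). Of the germinal center markers 5 of 8, and of the cycling markers 1 of 8, had a negative interaction, and their part was not tested.

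**Figure D4:**
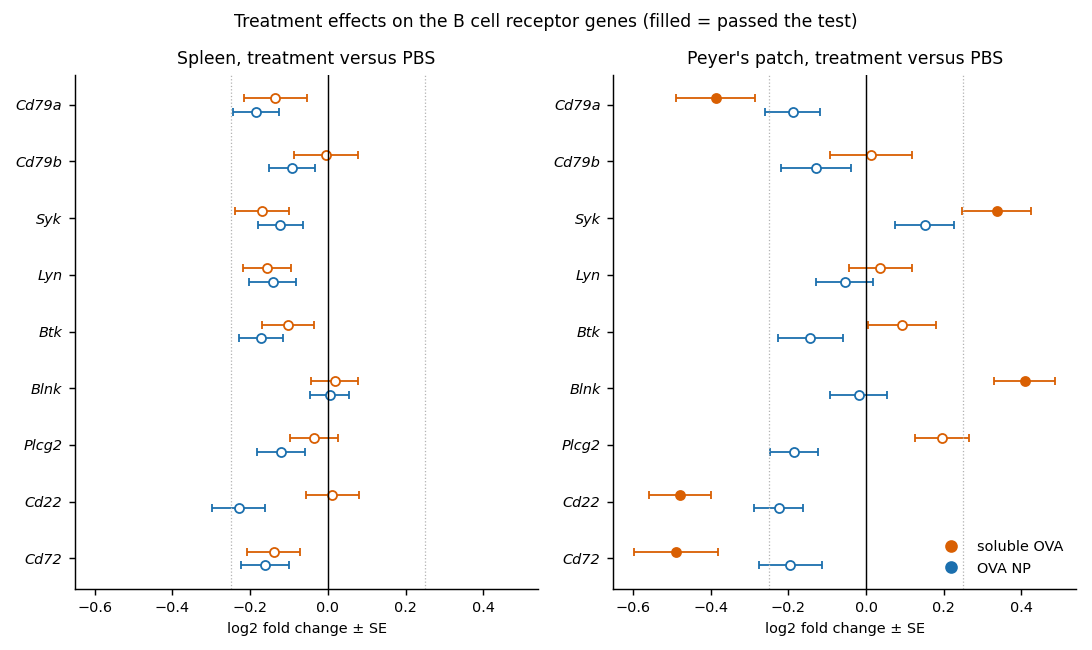
Log2 fold changes of soluble OVA and OVA NPs over PBS (horizontal axis, bars of 1 SE from edgeR) for the 9 genes in spleen (left) and PPs (right), with the fold cutoff of 0.25 as dotted lines; filled points passed the test. The filled points are *Cd79a*, *Syk*, *Blnk*, *Cd22*, and *Cd72* after soluble OVA in PPs, and no point is filled in spleen.

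OVA NPs changed 0 of the 9 genes in PP B cells, in a comparison in which 0% of the 15798 genes tested passed (1573 had an unadjusted p under 0.05, and DESeq2 called 149 genes, 0 of the 9 among them). *Cd22* read 1006, 1062, and 1003 CPM, below all 3 control libraries, with a log2 fold change of -0.22 (SE 0.063, adjusted p = 0.337). *Cd79a* (1197, 1113, and 1195 CPM) and *Plcg2* (505, 513, and 531 CPM) were also below their controls, at -0.19 and -0.19. Among all genes tested, 17.5% had no overlap between the groups. *Cd72* (486, 459, and 431 CPM) overlapped its controls, at -0.19. *Syk* read 829, 862, and 899 CPM and was the one member with a positive value, 0.15 (adjusted p = 0.537). The remaining members *Cd79b* (847, 704, and 743 CPM), *Lyn* (244, 254, and 251 CPM), *Btk* (166, 160.2, and 161 CPM), and *Blnk* (203, 205, and 219 CPM) overlapped their controls. Of the 8 germinal center markers 0 passed, and their sum ran from 869 to 1289 CPM. Other marker sums did not overlap the controls, although no single marker passed. B cell markers summed to 11986 to 12069.5 CPM against 13307 to 15282 CPM in controls. Dendritic cell markers summed to 94.4 to 96.9 against 63.1 to 84.8 CPM, and NK cell markers to 30.0 to 43.9 against 21.6 to 23.5 CPM. Monocyte and macrophage markers summed to 280.4 to 373 against 163 to 276 CPM. Mitochondrial transcripts took 9.08% to 9.80% of the counts after OVA NPs and 5.41% to 7.67% in controls, without overlap. The part of these values was not tested.

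OVA NPs and soluble OVA were then compared directly in PPs. *Blnk*, *Plcg2*, and *Btk* were lower after OVA NPs than after soluble OVA, 3 of the 9 genes, where 30.1% of the 15599 genes tested passed. All 3 OVA NP libraries were below all soluble OVA libraries for each of these genes, where 47.8% of all genes tested had no overlap between the groups. *Blnk* was 1.36-fold lower (log2 fold change -0.44, SE 0.088, adjusted p = 0.00555) and *Plcg2* 1.31-fold lower (log2 fold change -0.39, SE 0.084, adjusted p = 0.00775), and both calls held in all 6 fits without 1 library. *Btk* was at the edge of the cutoff (-0.25, adjusted p = 0.0447). Its call was lost with immunoglobulin genes removed (just inside the fold cutoff) and without PP soluble OVA replicate 1 (-0.18), 2 (adjusted p = 0.0565), or 3 (adjusted p = 0.0596). *Cd22* (0.24, adjusted p = 0.0945), *Cd72* (0.28, adjusted p = 0.119), and *Cd79a* (0.18, adjusted p = 0.275) had positive values that did not pass. Without PP soluble OVA replicate 1 these 3 passed, at 0.34, 0.43, and 0.32, and 5 of the 9 genes were called, and *Cd72* also passed in the fit to 18 libraries (0.27). Here 7 of 8 germinal center and 8 of 8 cycling markers were lower after OVA NPs and 6 of 9 T cell and 6 of 7 dendritic cell markers higher. The sums of the dendritic cell markers were 94.4 to 96.9 CPM after OVA NPs and 60.6 to 62.2 CPM after soluble OVA, and those of the NK cell markers were 30.0 to 43.9 CPM and 13.7 to 22.4 CPM. Mitochondrial transcripts took 9.08% to 9.80% and 4.97% to 6.02% of the counts, without overlap between these groups. The part of these values in the result was not tested.

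In spleen, OVA NPs changed 0 of the 9 genes, where 15% of the 14200 genes tested passed, and with DESeq2 0 passed as well. For 37.5% of the genes tested the OVA NP and control libraries did not overlap. Of the 9 genes 8 had a negative value, with a median of -0.14 on the log2 scale against 6.19e-04 over all genes tested. *Cd22* read 1147, 1214, and 1423 CPM, below all 3 control libraries, at -0.23 (SE 0.068, adjusted p = 0.0271). *Cd79a* read 1502, 1582, and 1742 CPM, at -0.19 (SE 0.059, adjusted p = 0.0385), and *Btk* read 175, 194, and 204 CPM, at -0.17 (SE 0.056, adjusted p = 0.0434). These 3 had an adjusted p under 0.05 with a fold change inside the cutoff. Replicate 3 of the OVA NP group was the highest of its group for all 9 genes, and without it *Cd22* passed, at -0.31 (adjusted p = 2.15e-04), as 1 of the 9. *Cd72* (410.4, 479, and 495 CPM) and *Syk* (1003, 1042, and 1151 CPM) lay below their controls, at -0.16 and -0.12. *Plcg2* (411, 429, and 493 CPM) and *Cd79b* (1183, 1270.4, and 1396 CPM) overlapped theirs, at -0.12 and -0.092, and the highest *Lyn* library (316, 327, and 372 CPM) lay just below the lowest control, at -0.14. *Blnk* (231, 237, and 248 CPM) was at 0.0044, with a 95% interval from -0.093 to 0.10. Beside these values, the 8 B cell markers summed to 13402 to 16149 CPM after OVA NPs and 16293 to 16964 CPM in controls, without overlap. The plasma cell markers, 2 of 5 tested higher (*Jchain* and *Xbp1*), summed to 593 to 618 CPM after OVA NPs and 376 to 436 CPM in controls. In the same libraries 7 of 8 germinal center markers and 8 of 8 cycling markers were higher after OVA NPs, with sums of 359 to 378 CPM and 801 to 1086 CPM, and 4 of 9 monocyte and macrophage markers were lower, with sums of 52.2 to 172 CPM against 121 to 279.7 CPM. Their part was not tested.

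Between OVA NPs and soluble OVA in spleen 0 of the 9 genes passed, with DESeq2 as well, where 0.238% of the 13840 genes tested passed, and 1 had an unadjusted p under 0.05. This was *Cd22*, whose OVA NP libraries lay below the soluble OVA libraries (-0.24, SE 0.088, unadjusted p = 0.0167, adjusted p = 0.439). Among all genes tested, 14.6% had no overlap between these groups. The other 8 lay between -0.086 (*Cd79b*, 95% interval -0.27 to 0.10) and 0.048 (*Syk*, 95% interval -0.11 to 0.21). The interaction of tissue and OVA NP treatment passed for 0 of the 9 genes, where 4.42% of the 16619 genes tested passed, and 1 had an unadjusted p under 0.05. This was *Syk*, at 0.29 (SE 0.090, adjusted p = 0.0901), which passed without PP PBS replicate 2 (0.35, adjusted p = 0.0273) and with DESeq2 (0.30, adjusted p = 0.00648), no count filter, or at least 10 counts in every library. Of the remaining 8, *Plcg2* was lowest (-0.049, 95% interval -0.22 to 0.12) and *Lyn* highest (0.10, 95% interval -0.081 to 0.28).

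The order of the 6 groups differed among the 9 genes. For *Cd79a*, *Cd79b*, *Syk*, *Lyn*, and *Cd22* all 3 spleen means lay above all 3 PP means, whereas *Plcg2* had all 3 PP means above all 3 spleen means. For *Syk* and *Cd22*, the lowest spleen mean and the highest PP mean differed by less than their spread. These were the soluble OVA means of both tissues for *Syk*, and spleen after OVA NPs and PP controls for *Cd22*. *Blnk* was highest in PPs after soluble OVA, at 286 ± 25.7 CPM (SD, n = 3), next to 243 ± 5.26 CPM in control spleen, and its PP control and OVA NP means (209 ± 13.6 and 209 ± 8.78 CPM) differed by less than their spread. *Plcg2* was also highest in PPs after soluble OVA, at 682 ± 53.3 CPM, followed by 579 ± 18.3 CPM in PP controls, and the lower PP value after OVA NPs (516 ± 13.1 CPM) overlapped control spleen (494 ± 17.4 CPM) within their SDs. *Cd22* and *Cd72* were lowest in PPs after soluble OVA, at 871 ± 96.6 and 379.8 ± 63.6 CPM. Neighbours in the order of *Btk*, from 219.9 ± 6.24 CPM in control spleen to 163 ± 3.24 CPM in PPs after OVA NPs, and of *Cd72* did not differ beyond their spread. The highest group mean exceeded the lowest 1.83-fold for *Cd79b*, 1.81-fold for *Cd79a*, and 1.35-fold for *Btk*, which varied least.

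The genes of the wider receptor pathway were followed in 5 lists (91 genes). In PP B cells after soluble OVA, 0 genes of these lists rose, where 13.5% of all genes rose and 13.9% fell. Of the coreceptor and surface complex 4 of 8 fell, among them *Ighd* (-1.48 on the log2 scale), the IgD heavy chain of naive B cells, *Cd38* (-0.89), and the complement receptor *Cr2* (-0.70). Of the other kinases and adaptors 8 of 23 fell, among them the exchange factor *Vav3* (-1.30) and the adaptor *Sh3bp2* (-0.99). Of the inhibitory receptors and phosphatases 11 of 24 fell, led by *Dok2* (-1.38), *Pirb* (-1.14), and *Pecam1* (-0.99). Of the calcium and PKC branch 5 of 21 fell, led by the calcium channel *Orai1* (-0.92), the calcium release receptor *Itpr1* (-0.78), and the protease *Malt1* (-0.67). The medians of these 4 lists were -0.33, -0.15, -0.39, and -0.052, against -0.017 over all genes tested.

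Of the 5 lists, the genes known to be induced early by receptor engagement had the largest share of falling members in that comparison. Of 15 such genes 12 fell, with a median of -1.33, led by the nuclear receptor *Nr4a1* (-2.41), the chemokine *Ccl4* (-2.21), and the transcription factor *Egr3* (-1.67). Their sum varied widely among PP libraries, from 1171 to 1712 CPM after soluble OVA and from 2934 to 4759 CPM in controls. After OVA NPs it was 1450, 3180, and 3339 CPM, so 1 of these libraries lay inside the soluble OVA range. The same 15 genes were all higher in PP than in spleen B cells of control mice, with a median of 2.06, where 25.5% of all genes were higher, and 11 of 15 were higher in PPs after OVA NPs, where 22% of all genes were. After soluble OVA 8 were higher and 3 lower in PPs than in spleen, against 26.7% and 24.3% of all genes. Such genes are also known to respond to tissue digestion, which was applied to PPs alone, and that cannot be told apart from tissue. The part of digestion in the spread among PP libraries was not tested. In spleen, where 8.6% of all genes rose and 6.35% fell, OVA NPs raised 2 of 13 tested (*Cd83*, 0.96, and *Cd86*, 0.26) and lowered 4, led by *Ier2* (-0.36), and soluble OVA raised 3, led by *Cd83* (1.26), and lowered 2, where 10.5% of all genes rose and 6.72% fell.

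The other lists were examined in spleen as well. After OVA NPs 5 of 23 other kinases and adaptors fell, among them *Tec* (-0.47), a relative of *Btk*, and *Blk* (-0.40), the Src-family kinase typical of B cells. Of the inhibitory receptors and phosphatases 6 of 24 fell, led by *Cd200* (-0.72), *Sla* (-0.55), and *Pirb* (-0.49), and of the calcium branch 4 of 21 fell, among them *Nfatc1* (-0.43) and *Orai2* (-0.35), where 6.35% of all genes fell. After soluble OVA *Blk* (-0.32) and *Nfatc1* (-0.44) fell too, and *Grb2* (0.29) and *Lat2* (0.27), both adaptors, rose. Between OVA NPs and soluble OVA in spleen, 1 gene of the 5 lists passed, *Sla* (-0.48), an adaptor that dampens receptor signaling.

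**Figure D5:**
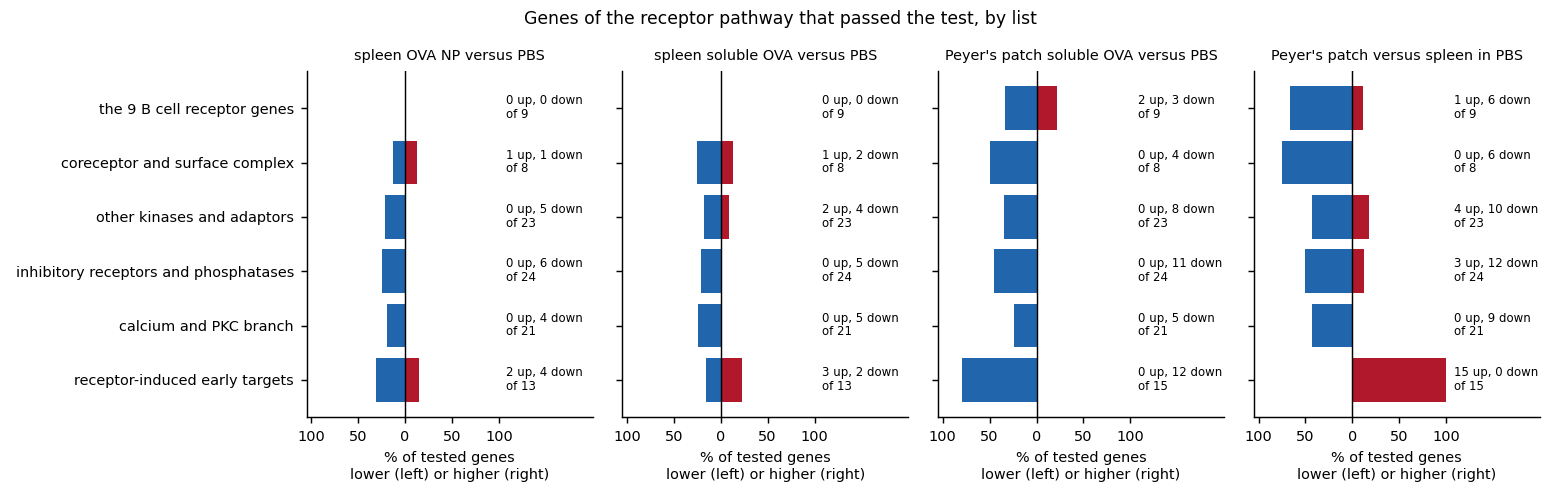
Share of the tested genes of each list that passed the test (horizontal axis, %), to the left where lower and to the right where higher, in 4 comparisons, with the counts beside the bars. The 9 B cell receptor genes have bars in the PP soluble OVA comparison (2 up, 3 down) and the tissue comparison (1 up, 6 down), and the early targets are all higher in control PPs than in control spleen.

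Between the tissues of control mice, 6 of 8 coreceptor genes were lower in PPs, where 20.1% of all genes were lower and 25.5% higher. The lower coreceptor genes were led by *Cr2* (-1.04), *Cd38* (-0.94), and the IgM heavy chain *Ighm* (-0.94). Of the other kinases and adaptors 10 of 23 were lower and 4 higher, with *Bank1*, a scaffold of B cells, at -0.80, and with *Grb2* at 0.62 and *Fyn*, another Src-family kinase, at 0.59. Of the inhibitory list 12 of 24 were lower and 3 higher, with the phosphatase *Ptpn22* at -1.37 and the lipid phosphatase *Inpp5d* at 0.49. Of the calcium branch 9 of 21 were lower, led by *Rasgrp1* (-0.96), and 0 were higher. *Plcg2* thus differed in direction from every called gene of the calcium branch, whereas the 6 members that were lower in PPs had the direction of most called genes of the coreceptor list.

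How the members varied together is given as a description. After each tissue was centred on its own mean, *Cd79a* and *Cd72* (r = 0.93), *Cd22* and *Cd72* (r = 0.84), *Lyn* and *Btk* (r = 0.87), *Btk* and *Plcg2* (r = 0.84), and *Blnk* and *Plcg2* (r = 0.83) varied together over the 18 libraries. In the 9 PP libraries *Cd22* ran against *Blnk* (r = -0.66) and *Syk* (r = -0.62), whereas in the 9 spleen libraries these pairs were at 0.24 and 0.51. The points share their treatment groups, library preparation, and normalization.

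Over the same 18 libraries and 8857 genes, the gene most like each member was sought. *Cd79a* was most like *Gmfg* (r = 0.956) and *Cd72* (r = 0.934), and *Cd79b* most like *Slc39a1* (r = 0.883) and *Ptprcap* (r = 0.879). Of the kinases, *Syk* was most like *Man2a2* (r = 0.932) and *Acss1* (r = 0.877), *Lyn* most like *Hip1r* (r = 0.913) and *Gga2* (r = 0.881), and *Btk* most like *Dbnl* (r = 0.900) and *Ankrd40* (r = 0.885). *Blnk* was most like *Ppm1d* (r = 0.970) and *Trpc4ap* (r = 0.958), and *Plcg2* most like *Parp1* (r = 0.947) and *Tcof1* (r = 0.940). *Cd22* was most like *Rhobtb2* (r = 0.954) and *Rasal1* (r = 0.950), and *Cd72* most like *Bin1* (r = 0.958) and *Slc44a2* (r = 0.952).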

How the data were processed

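B cells from spleens and PPs were isolated by magnetic negative selection, and poly(A) RNA was sequenced in 18 libraries. Per the submitters' processing notes and the study's methods, reads were trimmed (cutadapt 2.3), aligned to GRCm38 (STAR 2.7.8a), and quantified (RSEM 1.3.3). The deposited values are the authors' expected counts, stored as whole numbers and not normalized. Groups and replicate numbers come from the labels.

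Each comparison was fitted on its own 6 libraries (12 for interactions) in edgeR 4.0.16 (R 4.3.3) with filterByExpr (count 10, total count 15), TMM factors of those libraries, and the robust quasi-likelihood F test, and p values were adjusted by the Benjamini-Hochberg method. Passing required an adjusted p below 0.05 together with a log2 fold change beyond ±0.25, and for interactions the adjusted p alone. Alternatives were DESeq2 1.42.0 (the study's tool), its size factors, other count filters, no fold cutoff, no immunoglobulin genes, all 18 libraries in 1 fit, a replicate block, and each library left out. Replicates differed beyond counting error (chi-square per gene 5.30 to 51.0). In simulated data, 200 genes with a mean count of at least 50 were given a log2 change of 1. The simulated spread between replicates was fixed (dispersion 0.02). For OVA NPs against PBS in spleen, edgeR recovered 192 of the 200 (14160 genes, 8 false calls). It recovered 192 for PP against spleen in PBS (14132 genes, 15 false) and 132 for the soluble OVA interaction (16057 genes, 5 false). Recovery of smaller changes, or at another spread between replicates, was not tested.

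The members and lists were chosen with earlier results of these data known. Of each list, named genes are up to 3 passing genes per direction and comparison with the largest change and at least 1 CPM on average, although a few of these are left out here. The 2 most similar genes have the highest Pearson r of log2 CPM (prior count 2) among genes averaging 10 CPM or more, without Gm or Rik symbols, antigen receptor segments, or mitochondrial genes. Positions and exon lengths come from a GRCm38 annotation of another release.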

Additional observations from a re-analysis of the deposited data

Results flagged for a closer look

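The effect of soluble OVA differed between PP and spleen B cells for 3 of the 9 genes, by the test of the interaction itself. The difference (PP effect minus spleen effect, log2 scale) was 0.51 for *Syk*, 0.40 for *Blnk*, and -0.48 for *Cd22*, with adjusted p values of 0.0165, 0.0334, and 0.0124 from edgeR. In single libraries, *Syk* was below its controls in 3 of 3 spleen libraries and above them in 3 of 3 PP libraries after soluble OVA, and *Blnk* and *Cd22* were outside their controls in 3 of 3 PP libraries and overlapped them in spleen. Such separation was common: 37.9% of all genes tested in spleen and 45.4% in PPs had no overlap between soluble OVA and PBS. Groups of 3 libraries are too small for the test of single outlying libraries.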

How the results depend on the processing

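Of 553 values of the 9 genes recomputed under alternatives other than leaving out a library, 530 kept their direction and their side of the threshold, and of 510 recomputed without 1 library 450 did. No value that passed the test changed sign. The number of the 9 genes passing went from 0 to 3 for OVA NPs against PBS in spleen and from 5 to 8 for PP against spleen after OVA NPs without the fold cutoff. For the OVA NP interaction it went from 0 to 1 with DESeq2, with no count filter, and with at least 10 counts in every library. Leaving out 1 library gave 0 to 1 for OVA NPs against PBS in spleen, 2 to 5 for soluble OVA against PBS in PPs, 2 to 5 for OVA NPs against soluble OVA in PPs, 0 to 1 for the OVA NP interaction, and 1 to 3 for the soluble OVA interaction. Where a pair of groups was left with 1 group of 2, the spread came from all remaining libraries.

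The labels do not say whether equal replicate numbers mark the same mouse. The residuals of same-numbered libraries correlated at a mean r of -0.244 to 0.0909 over the comparisons. In each comparison at least 1 of the 3 correlations was under 0.1. With 3 libraries in a group these correlations cannot exclude pairing, so a replicate block was fitted as an alternative. With the replicate number as a block, 3 of the 9 genes passed for soluble OVA against PBS in PPs (5 without it), where *Cd79a* (-0.39) and *Syk* (0.34) did not, 2 rather than 3 for OVA NPs against soluble OVA in PPs, and the number of all genes passing went from 4697 to 3119 there and from 734 to 429 for the OVA NP interaction.

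Values near 0 changed sign. *Blnk* for OVA NPs against PBS in spleen was -0.015 with no count filter and -0.0015 in the fit to 18 libraries, *Cd22* for soluble OVA in spleen -0.0074 with no filter, and *Blnk* for OVA NPs in PPs 8.15e-04 with no filter. *Cd72* between tissues was -0.027 (no filter) and -0.0079 (18 libraries) after PBS, and -0.049 (18 libraries) and -1.52e-04 (immunoglobulin genes removed) after OVA NPs. Without 1 library the ranges were -0.012 to 0.018 (*Blnk*) for OVA NPs in spleen; -0.10 to 0.067 (*Cd79b*), -0.020 to 0.050 (*Blnk*), and -0.0095 to 0.053 (*Cd22*) for soluble OVA in spleen; -0.092 to 0.0066 (*Lyn*) and -0.051 to 0.037 (*Blnk*) for OVA NPs in PPs; -0.087 to 0.14 (*Cd79b*) and -3.59e-04 to 0.14 (*Lyn*) for soluble OVA in PPs; and -0.032 to 0.064 and -0.071 to 0.053 (*Cd72*) between tissues after PBS and OVA NPs.

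The number of all genes passing moved by over 1.5 times in 5 comparisons. For OVA NPs against soluble OVA in spleen (33) it was 113 with DESeq2, 230 with no count filter, 14 in the fit to 18 libraries, and 0 to 40 without 1 library. For OVA NPs against PBS in PPs (0) it was 149, 146, 24, and 0 to 8. For the OVA NP interaction (734) it was 1290 with DESeq2 and 291 to 945 without 1 library, and for the soluble OVA interaction (1131) 1817 and 655 to 1279. The cause was not tested.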
